A study of Mus musculus with 24 samples.

Results

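White fat cultures at day 8 of differentiation with EGCG were set against control cultures at day 4, the midpoint of the same culture. EGCG (epigallocatechin gallate) is the main polyphenol in green tea. The question was whether the treated cells resembled a younger culture or had gone elsewhere. The comparison used the 3 WAT day 8 EGCG libraries and the 3 WAT day 4 control libraries, 6 of the 24 libraries of the series, chosen by their sample labels alone. The 3 WAT day 8 control libraries closed the path: a gene lay outside it when its level with EGCG was above both control groups or below both. Cells were from the stromal vascular fraction (SVF, the non-adipocyte cells of fat) of inguinal white adipose tissue (WAT) of 6-week-old C57BL/6 mice. They had been kept for 4 days in induction medium with insulin, dexamethasone and 3-isobutyl-methylxanthine, and day 8 cultures then spent another 4 days in medium with insulin and T3, the active thyroid hormone. Control cultures had received the solvent DMSO. The dose of EGCG and the days on which it was present were not given in the sources used here. Day 8 EGCG and day 4 control cells therefore differed in age, medium and treatment, which cannot be told apart in their direct comparison, while day 8 EGCG and day 8 control cells differed in treatment. Libraries from before day 4 were not analysed here, so the path has no earlier point than day 4.

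Adipocytes form from fibroblast-like precursors when a hormone cocktail switches on the early factors C/EBPβ and C/EBPδ, which raise PPARγ and C/EBPα. These in turn maintain the genes of the mature cell, which code for lipid droplet coats, fatty acid binding proteins, lipogenic enzymes and secreted adipokines. Precursors divide for a short time after induction and then leave the cell cycle, and they remodel their fibrillar collagen matrix as lipid accumulates.

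Values are FPKM, reads divided by gene length and by the reads on all genes of the library. Replicates 1 and 2 of every group were deposited in one table and replicate 3 in another that was scaled on its own, so tests used replicates 1 and 2, and the third value of each group is shown for its direction. The first table held 39452696 to 52893848 reads per library and the second 16392420 to 41675643. One library stood apart: WAT day 8 EGCG replicate 3 had 61.0% of its reads on 5 genes, which were removed and its values rescaled to the remaining 16249394 reads. The labels do not say that replicates were separate isolations of cells, so p-values measure only the spread between these libraries. In bulk RNA, fewer cells of a type and less RNA per cell cannot be told apart.

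The sample labels name differentiating preadipocytes. Mature adipocyte genes were high in both control groups and lower in the cells with EGCG. The summed level of 22 mature adipocyte genes was 6287, 5589 and 6645 FPKM in the 3 control day 4 libraries (replicates 1, 2 and 3, the order used throughout), 8467, 9603 and 8602 FPKM in control day 8 libraries, and 679, 745 and 631 FPKM in EGCG day 8 libraries. Genes that mark other cells moved as well. The sum of 12 macrophage genes was 83.4 to 91.8 FPKM in control day 4, 143 to 178 in control day 8 and 60.5 to 69.8 in EGCG day 8 libraries. For 10 endothelial genes the sums were 22.6 to 24.7, 29.1 to 31.8 and 37.2 to 40.3 FPKM in the same order, and for 5 Schwann cell genes 8.42 to 10.6, 13.9 to 16.9 and 32.7 to 38.9 FPKM. Sums over 7 lymphocyte genes were at most 0.491 FPKM in every library of the 3 groups. The part of these other cells in the results was not tested.

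Levels were compared on the log2(FPKM + 1) scale with limma across 14095 genes, and a gene was called at a Benjamini-Hochberg adjusted p under 0.05. Against control day 4, EGCG day 8 cells had 5756 genes higher (40.8% of those tested) and 3593 lower (25.5%), 1928 of them by at least 2-fold. Along the control path, 3907 genes rose from day 4 to day 8 (27.7%) and 4684 fell (33.2%). Against control day 8, 6302 genes were higher with EGCG (44.7%) and 2660 lower (18.9%). A gene was called outside the path when EGCG day 8 differed from both control groups in the same direction, with the larger of the 2 p-values adjusted over all genes. There were 3894 genes above the path (27.6%) and 1441 below it (10.2%). At a distance of at least 2-fold from the nearer control group, 352 lay above (2.5%) and 318 below (2.26%). The comparisons share libraries, so their counts are not independent of each other.

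Replicate 3, which had no part in the test, lay on the same side of both control libraries of its own table for 3796 of the 3894 genes called above (97.48%) and for 1374 of the 1441 called below (95.35%). Over all tested genes, the treated library of replicate 3 was above both controls for 44.74% and below both for 22.47%. The balance of the 2 directions rested on how libraries were scaled. Median-ratio scaling moved the median difference of all genes between EGCG day 8 and control day 4 from 0.11 to -0.01 on the log2 scale, and the genes outside the path became 2451 above and 2247 below, a share above of 52.17% in place of 72.99%. Quantile normalization gave 2907 above and 1876 below (60.78% above). No gene called outside was called on the other side of the path under either scaling.

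The position of the treated cells differed from gene to gene. Of all tested genes, 1057 lay between the 2 control groups and differed from both, 2205 differed from control day 8 only, and 2592 differed from control day 4 only. Among genes outside the path, 1204 lay before its start, on the day 4 side of a gene that changed in controls, 1810 lay beyond its end, and 2321 had no called change in controls. Of the 907 genes that rose at least 2-fold in controls, 150 were before the start, 186 differed from day 8 only, 225 were between, 174 differed from day 4 only and 155 were beyond the end. Of the 536 genes that fell at least 2-fold in controls, 13 were before the start, 31 differed from day 8 only, 172 were between, 227 differed from day 4 only and 72 were beyond the end. Genes that rose in controls were thus spread over all positions, and most of those that fell in controls were also lower with EGCG than at control day 4.

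**Figure D1:**
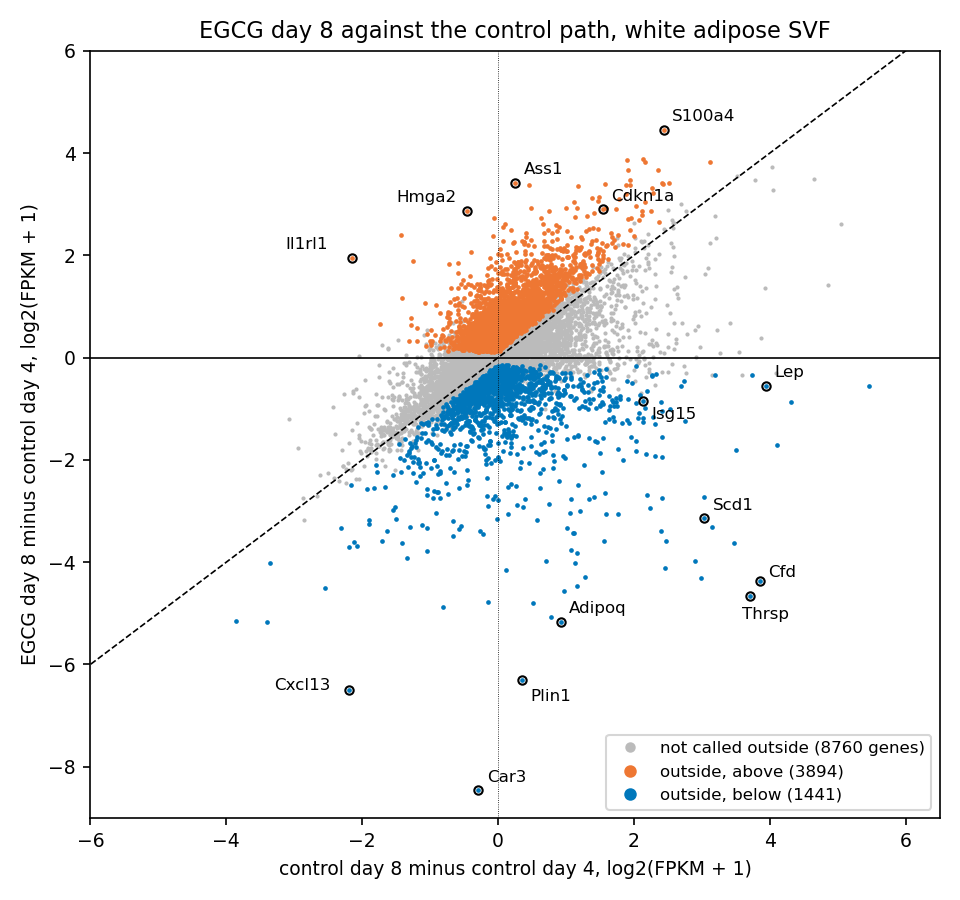
Each point is 1 of the 14095 tested genes, with the change of control cells from day 4 to day 8 on the x axis and the difference of EGCG day 8 from control day 4 on the y axis, both in log2(FPKM + 1), means of replicates 1 and 2. The solid horizontal line is the control day 4 level and the dashed diagonal the control day 8 level: genes called above both are orange (3894), genes called below both are blue (1441), and Car3, Plin1 and Adipoq lie far below both lines while S100a4, Ass1 and Hmga2 lie above them.

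Genes of the mature adipocyte were lower than at control day 4. Of 22 genes on the list, 20 were below the path, 18 of them by at least 2-fold, and 16 of the 20 lay before its start. Against control day 4, 20 were lower and 1 higher, with a median log2 difference of -3.52 against 0.11 over all tested genes. In controls 17 of the 22 had risen from day 4 to day 8. All 22 were lower with EGCG than in control day 8 cells. Over all tested genes, 10.2% were below the path and 27.7% rose in controls. With EGCG, 25.5% of all tested genes were lower than at control day 4 and 18.9% lower than at control day 8.

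Car3, a cytosolic carbonic anhydrase abundant in fat (chromosome 3, 14863538 to 14872351, build mm9), was at 1690, 1437 and 1657 FPKM in control day 4 libraries, 1197, 1358 and 993 FPKM in control day 8 libraries, and 3.48, 3.38 and 2.78 FPKM with EGCG at day 8. The treated libraries did not overlap with either control group, and their mean was 456-fold lower than at control day 4 (log2 difference -8.46 ± 0.163 SE, limma adjusted p 1.6e-11). Plin1 codes for perilipin, the coat of the adipocyte lipid droplet (chromosome 7, 86866050 to 86877662). Its levels were 116, 105 and 116 FPKM in control day 4, 147, 135 and 119 FPKM in control day 8, and 0.171, 0.707 and 0.321 FPKM in EGCG day 8 libraries. At these levels the treated libraries held 17, 54 and 10 reads of the gene, and the mean was 252-fold below control day 4 (log2 difference -6.30 ± 0.139 SE, adjusted p 3.6e-11).

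Adipoq, which codes for the adipokine adiponectin (chromosome 16, 23146609 to 23158101), was at 132, 110 and 143 FPKM at control day 4, 214, 246 and 195 FPKM at control day 8, and 2.34, 2.45 and 2.10 FPKM with EGCG. Every treated library was under every control library, and the log2 difference from control day 4 was -5.16 ± 0.0948 SE (adjusted p 1.6e-11). Cfd, the serine protease adipsin, showed a steeper control path, from 43.9, 35.9 and 60.7 FPKM at day 4 to 508, 676 and 648 FPKM at day 8, and was at 1.10, 0.843 and 1.13 FPKM with EGCG. Its treated mean lay 41.0-fold under control day 4 and 608-fold under control day 8. Lep, the gene of leptin, had at most 1 read in each treated library, against 0.502, 0.444 and 0.449 FPKM at control day 4 and 21.3, 21.8 and 17.8 FPKM at control day 8.

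Other genes of the list kept higher levels. Lpl, the lipoprotein lipase that also appears early in differentiation, was at 500, 548 and 447 FPKM with EGCG, against 1636, 1574 and 1551 FPKM at control day 4 and 1234, 1199 and 1206 FPKM at control day 8, and it lay beyond the end of a falling path. Fabp4, the fatty acid carrier of adipocytes, was at 117, 133 and 116 FPKM with EGCG and at 1909, 1669 and 2214 FPKM at control day 4. Sncg, which codes for γ-synuclein and is abundant in white adipocytes, was the only gene on the list above control day 4: 5.35, 5.15 and 8.60 FPKM with EGCG lay between 1.30, 1.56 and 1.15 FPKM at control day 4 and 34.5, 37.4 and 37.2 FPKM at control day 8 (log2 difference from day 4 1.36 ± 0.0748 SE, adjusted p 1.9e-08).

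In EGCG cultures at day 4, levels of Car3 were 35.1, 41.3 and 25.2 FPKM, those of Plin1 4.93, 4.99 and 4.94 FPKM and those of Adipoq 5.04, 5.31 and 4.29 FPKM. These too were under the control day 4 libraries, and each was above the day 8 values with EGCG; the change between the 2 EGCG days was not tested here.

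Of 13 lipogenesis genes, which make fatty acids and their precursors, 10 were below the path and none above, 9 of them before its start. Over all tested genes, 10.2% were below and 27.6% above. The citrate carrier Slc25a1 was higher than at control day 4 (log2 difference 0.23, adjusted p 0.042). Against control day 4 the median log2 difference of the list was -1.09. In controls 12 of the 13 had risen, beside 27.7% of all tested genes. Thrsp, a nuclear protein that promotes lipogenic transcription (chromosome 7, 104561448 to 104566240), went from 51.1, 38.2 and 61.9 FPKM to 380, 915 and 805 FPKM in controls and was at 0.693, 0.865 and 0.964 FPKM with EGCG. The control day 8 libraries were spread widely, yet the treated libraries were under all controls (log2 difference from day 4 -4.67 ± 0.309 SE, adjusted p 8.5e-08). Scd1, the stearoyl-CoA desaturase, was at 57.4, 60.9 and 59.8 FPKM with EGCG against 555, 504 and 547 FPKM at control day 4 and 4254, 4425 and 3585 FPKM at control day 8. From the mature adipocyte list, Dgat2, which makes triglyceride from diacylglycerol (chromosome 7, 106302173 to 106331223), was at 2.31, 2.62 and 2.57 FPKM against 102, 89.4 and 124 FPKM at control day 4 (log2 difference -4.80 ± 0.0933 SE, adjusted p 1.6e-11). Acsl1, the acyl-CoA synthetase of adipocytes (chromosome 8, 47556395 to 47621405), was at 3.75, 3.86 and 3.69 FPKM against 136, 125 and 144 FPKM, with no called change in controls. In the lipogenesis list itself, 2 genes differed from control day 8 only. One was Acly, ATP citrate lyase, at 56.2, 53.6 and 54.4 FPKM with EGCG and 73.1, 71.3 and 77.8 FPKM at control day 4, a difference that did not pass the test (adjusted p 0.16), while control day 8 libraries reached 227, 481 and 392 FPKM.

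Of 14 transcription factors that drive adipogenesis, 7 were below the path and none above, beside 10.2% and 27.6% of all tested genes. Lower than at control day 4 were 11, beside 25.5% of all tested genes, with a median log2 difference of -0.70. Median-ratio scaling placed 12 below the path and quantile normalization 9. Pparg, the master regulator, was at 9.06, 8.05 and 7.62 FPKM with EGCG, against 57.0, 50.8 and 54.9 FPKM at control day 4 and 54.2, 66.2 and 54.0 FPKM at control day 8. Cebpa was at 19.8, 17.7 and 21.5 FPKM against 143, 124 and 167 FPKM at control day 4. Both had no called change between the control days, and both treated groups lay clear of all controls (log2 differences from day 4 -2.52 ± 0.105 SE and -2.77 ± 0.1001 SE, adjusted p 2.1e-09 and 7.3e-10). Klf15, Srebf1, Nr1h3, Rxra and Zfp423 were the other members below the path. Of the early factors, Cebpd was at 51.6, 53.5 and 46.6 FPKM with EGCG and at 57.4, 58.2 and 55.6 FPKM at control day 4, with an adjusted p of 0.23, and Cebpb, Ebf1 and Ebf2 were lower than at control day 4 without a called difference from control day 8.

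Acute phase proteins, which adipocytes secrete in culture, had 6 of 8 genes below the path and none above, beside 10.2% and 27.6% of all tested genes. Their median log2 difference from control day 4 was -1.57. Hp, haptoglobin, rose in controls from 302, 291 and 402 FPKM to 1918, 2542 and 2543 FPKM and was at 16.4, 19.6 and 19.3 FPKM with EGCG. Saa3, serum amyloid A3, fell in controls from 1311, 1344 and 1429 FPKM to 728, 783 and 637 FPKM and was at 38.3, 50.6 and 36.7 FPKM with EGCG, beyond the end of its path. Complement C3 was at 11.6, 12.3 and 11.3 FPKM against 88.0, 81.5 and 107 FPKM at control day 4. Serpina3n, a secreted protease inhibitor, went the other way: at 848, 846 and 756 FPKM it lay between 356, 371 and 427 FPKM at control day 4 and 1201, 1740 and 1738 FPKM at control day 8.

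**Figure D2:**
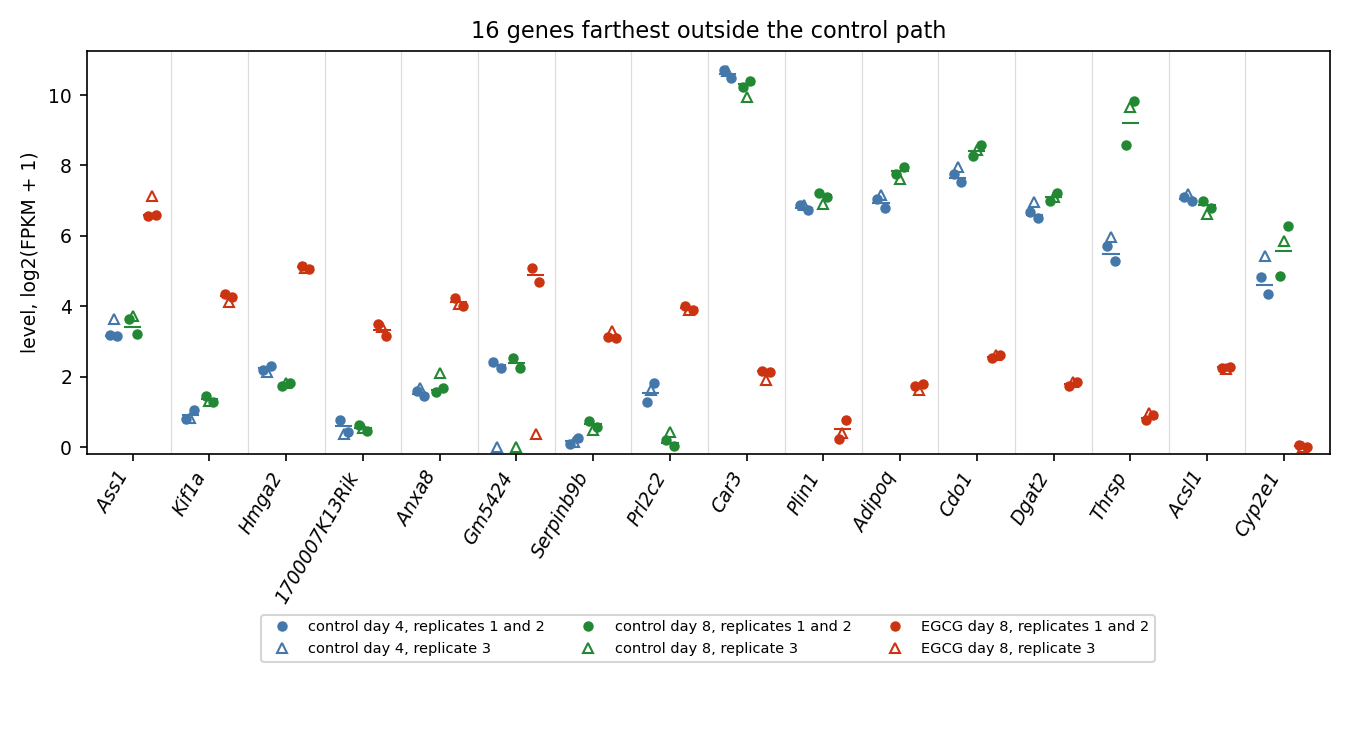
Levels in log2(FPKM + 1) of the 8 genes farthest above and the 8 farthest below the control path in every library of the 3 groups. Filled circles are replicates 1 and 2 with their mean as a bar, and open triangles are replicate 3, whose table was scaled separately: the red EGCG day 8 values of Ass1 to Prl2c2 are above both control groups and those of Car3 to Cyp2e1 below both, and for Gm5424 replicate 3 is near 0 in all 3 groups.

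Type I interferon activates a complex of transcription factors that binds a short repeated element in the promoters of its targets, and these targets make antiviral proteins. All 15 genes of the list rose in controls from day 4 to day 8, with a median log2 change of 1.70. With EGCG, 10 of the 15 were below the path, all 10 before its start, none was above, and 14 were lower than at control day 8. The median log2 difference from control day 4 was -0.56. Over all tested genes, 27.7% rose in controls, 10.2% were below the path, 27.6% above it and 18.9% lower with EGCG than at control day 8. The summed macrophage marker level was also highest in control day 8 and lowest in EGCG day 8 libraries. Of the 10 macrophage genes tested, 5 were below the path, beside the same 10.2%. The part of macrophage genes in the interferon result was not tested.

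The promoters of the list genes (RefSeq, build GRCm38.p6, 250 bases before to 50 after the gene start) were searched on both strands for GAAANNGAAA. These letters are the core of the interferon-stimulated response element. Of the 13 list genes with a promoter in the table, 9 held a match, against 1079 of all 27025 genes (3.99%) and 1131 of 32851 promoters (3.44%). The 9 were Bst2, Ddx58, Ifih1, Ifit1, Ifit3, Isg15, Oas1a, Rsad2 and Stat2. Of these 9, 6 were below the path, the same share as the 10 of 15 in the whole list. The promoters of the ubiquitin-like modifier Isg15, the RNA-binding antiviral protein Ifit1 and the radical SAM enzyme viperin (Rsad2) are shown 5′ to 3′ on the gene's strand as examples of this shared feature, with matches in capitals, 3 overlapping ones in Isg15, 2 in Ifit1 and 1 in Rsad2. The motifs and promoters here and in later paragraphs were chosen after the values were seen, and a match describes letters, not a measured binding site. Where a list holds known targets of a factor, a raised share of its element comes with the list and says nothing about EGCG.
Isg15 (chr4:156200769-156201068, minus strand): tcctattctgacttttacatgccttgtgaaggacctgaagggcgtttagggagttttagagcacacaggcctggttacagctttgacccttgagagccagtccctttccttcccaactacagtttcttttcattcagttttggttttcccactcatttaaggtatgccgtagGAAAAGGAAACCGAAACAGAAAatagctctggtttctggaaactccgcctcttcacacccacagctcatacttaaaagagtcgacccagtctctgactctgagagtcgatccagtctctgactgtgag
Ifit1 (chr19:34640639-34640938, plus strand): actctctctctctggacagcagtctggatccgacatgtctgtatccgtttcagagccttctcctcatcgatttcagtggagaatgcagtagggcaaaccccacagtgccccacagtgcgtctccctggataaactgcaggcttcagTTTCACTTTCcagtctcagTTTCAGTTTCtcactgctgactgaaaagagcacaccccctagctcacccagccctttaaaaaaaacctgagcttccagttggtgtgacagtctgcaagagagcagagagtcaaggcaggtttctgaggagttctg
Rsad2 (chr12:26456403-26456702, minus strand): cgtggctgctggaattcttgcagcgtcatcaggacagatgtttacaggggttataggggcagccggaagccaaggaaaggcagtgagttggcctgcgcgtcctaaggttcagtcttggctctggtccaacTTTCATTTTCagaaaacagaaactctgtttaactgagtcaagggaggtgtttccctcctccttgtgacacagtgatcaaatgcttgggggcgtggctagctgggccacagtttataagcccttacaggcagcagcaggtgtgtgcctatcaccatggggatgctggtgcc

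Isg15 was at 25.8, 31.6 and 29.9 FPKM in control day 4, 136, 122 and 121 FPKM in control day 8, and 15.5, 15.5 and 17.3 FPKM in EGCG day 8 libraries. The treated libraries were under all controls (log2 difference from day 4 -0.84 ± 0.157 SE, adjusted p 5.0e-04). Ifit1 was at 5.92, 6.94 and 7.74 FPKM, then 35.5, 34.7 and 28.7 FPKM, and with EGCG at 2.12, 2.503 and 3.66 FPKM, again with no overlap. Rsad2 went from 0.944, 1.27 and 1.01 FPKM to 6.19, 5.35 and 4.94 FPKM in controls and was at 0.184, 0.168 and 0.455 FPKM with EGCG. Irf7, the factor that amplifies interferon production, showed 7.38, 9.56 and 7.55 FPKM, then 51.5, 47.0 and 48.2 FPKM, and 3.81, 3.38 and 4.29 FPKM with EGCG. Ifit2 was the exception. At 10.6, 9.65 and 8.61 FPKM with EGCG it was near the control day 8 libraries, 8.78, 9.16 and 8.16 FPKM, and higher than at control day 4, 2.17, 2.89 and 2.17 FPKM (log2 difference 1.66 ± 0.103 SE, adjusted p 5.2e-08).

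No replication or mitosis gene was called outside the control path. All 22 fell in controls from day 4 to day 8 and all 22 were lower with EGCG than at control day 4, beside 33.2% and 25.5% of all tested genes. The median log2 difference from control day 4 was -1.58 with EGCG and -1.66 for control day 8. Of the 22, 14 differed from control day 4 only, and 8 lay between the control groups. For 8 of the 22 the level with EGCG was above control day 8, beside 44.7% of all tested genes. For none was it below, beside 18.9% of all tested genes. Cdk1, the mitotic kinase, was at 11.8, 11.5 and 12.01 FPKM in control day 4, 3.16, 2.96 and 3.30 FPKM in control day 8, and 3.23, 2.96 and 3.24 FPKM in EGCG day 8 libraries. The 2 day 8 groups overlapped, and both were under every day 4 library. Rrm2, a subunit of the enzyme that makes deoxynucleotides, was the member farthest from control day 8: 14.9, 13.3 and 14.2 FPKM with EGCG, between 18.8, 19.7 and 18.1 FPKM at control day 4 and 3.71, 4.82 and 4.95 FPKM at control day 8. The cell cycle homology region TTTGAA, an element of genes expressed in G2 and mitosis, was found on either strand in the promoters of 8 of 19 list genes in the table, against 20.2% of all genes and 17.9% of all promoters. Cdk1 is shown as the example that fell alike in both groups, with its 2 matches in capitals.
Cdk1 (chr10:69352863-69353162, minus strand): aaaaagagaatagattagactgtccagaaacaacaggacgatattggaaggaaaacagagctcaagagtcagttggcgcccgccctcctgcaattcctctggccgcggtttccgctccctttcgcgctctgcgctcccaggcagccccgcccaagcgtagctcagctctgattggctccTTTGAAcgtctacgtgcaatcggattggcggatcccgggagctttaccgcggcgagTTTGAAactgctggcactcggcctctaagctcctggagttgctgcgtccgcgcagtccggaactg

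A list of CDK inhibitors, which hold the cell cycle, D cyclins, which drive it, and p53 with its targets had genes outside the path in both directions. Of 12 tested, 6 were above and 4 below, beside 27.6% and 10.2% of all tested genes, and 7 of these 10 were beyond the path's end. Cdkn1a, the p21 inhibitor and a target of p53, was at 43.9, 40.1 and 46.6 FPKM in control day 4, 127, 121 and 116 FPKM in control day 8, and 324, 316 and 325 FPKM with EGCG. Treated libraries were above all controls, 7.61-fold over day 4 and 2.58-fold over day 8 (log2 difference from day 4 2.90 ± 0.0603 SE, adjusted p 2.4e-11). The p53 targets Mdm2 and Ccng1 had 114, 110 and 106 FPKM and 240, 218 and 213 FPKM with EGCG, against 30.1, 29.5 and 27.9 FPKM and 47.9, 44.5 and 47.0 FPKM at control day 4. Cyclin D1 (Ccnd1) was at 36.1, 37.1 and 42.4 FPKM, against 5.26, 6.13 and 5.66 FPKM at control day 4 and 10.2, 9.92 and 11.5 FPKM at control day 8. Ccnd2 and Trp53 were the other members above. The inhibitors Cdkn1c, Cdkn2a, Cdkn2b and Cdkn2c were below: Cdkn2c, which codes for p18, was at 9.08, 9.37 and 8.82 FPKM with EGCG, against 36.8, 34.5 and 40.8 FPKM at control day 4 and 25.7, 25.1 and 24.7 FPKM at control day 8.

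Targets of the hypoxia-inducible factor (HIF), which include glycolytic enzymes and VEGF, were tested for 20 genes. Of these, 17 were higher with EGCG than at control day 4 (median log2 difference 1.08) and 17 had risen in controls (median 0.84), 9 differed from control day 4 only, 5 were above the path and 1, the oxidoreductase gene Ero1l, below. The share above was near that of all tested genes, 27.6%, and the share below under theirs, 10.2%. Over all tested genes, 40.8% were higher with EGCG than at control day 4 and 27.7% rose in controls. Ndufa4l2, a mitochondrial HIF target that overlaps Shmt2 in the annotation, was at 13.4, 15.4 and 19.3 FPKM in control day 4, 180, 170 and 193 FPKM in control day 8 and 177, 179 and 221 FPKM in EGCG day 8 libraries. Adm, adrenomedullin, was at 46.4, 45.0 and 44.6 FPKM, 175, 203 and 222 FPKM, and 190, 200 and 198 FPKM in the same order. For both, the day 8 groups overlapped and were above all day 4 libraries. Slc2a1, the basal glucose transporter GLUT1, was the member farthest above the path: 100, 93.0 and 120 FPKM with EGCG, against 30.1, 30.4 and 36.04 FPKM at control day 4 and 35.9, 27.8 and 33.9 FPKM at control day 8 (log2 difference from day 4 1.64 ± 0.104 SE, adjusted p 6.2e-08). The HIF core ACGTG occurred in the promoters of 14 of 18 list genes in the table, against 21.8% of all genes and 19.6% of all promoters.

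**Figure D3:**
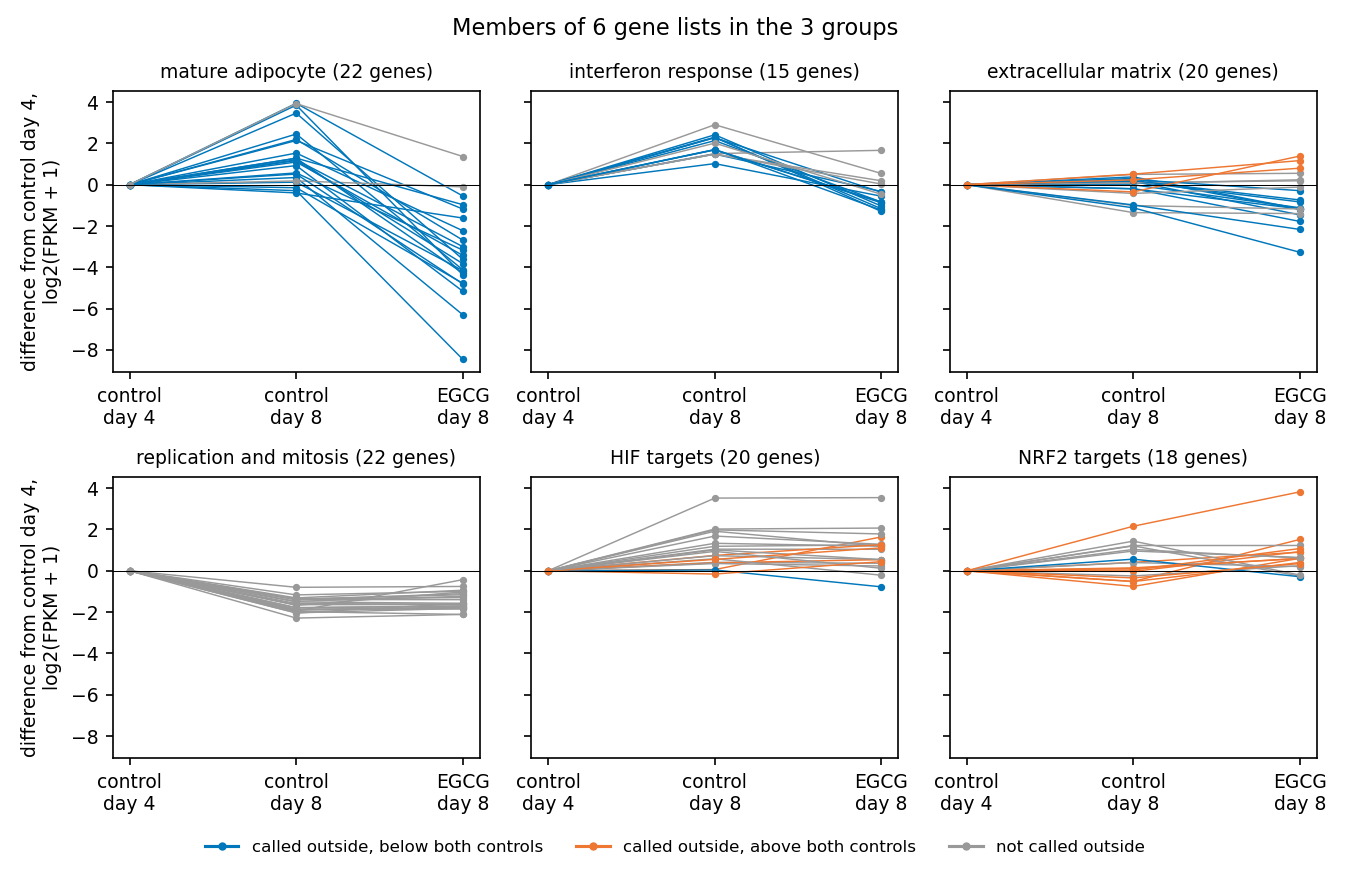
Each line is 1 gene of a list, drawn as its difference from control day 4 in log2(FPKM + 1) in the 3 groups (means of replicates 1 and 2). Blue and orange lines are genes called outside the path, below and above: 20 of 22 mature adipocyte and 10 of 15 interferon genes end below both controls, all 22 replication and mitosis genes end between or beside the control groups, and 10 of 18 NRF2 target genes end above. Over all tested genes, 10.2% were called below and 27.6% above.

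Of 20 extracellular matrix genes, 11 were below the path and 3 above, beside 10.2% and 27.6% of all tested genes. Their median log2 difference from control day 4 was -0.98, and quantile normalization gave 9 below and 6 above. Fibrillar and beaded filament collagens were among those below. Col1a1, a chain of type I collagen, was at 962, 1017 and 1179 FPKM with EGCG, against 2245, 2288 and 2578 FPKM at control day 4 and 3223, 2431 and 3217 FPKM at control day 8. Col6a1, a chain of type VI collagen that surrounds adipocytes, was at 291, 299 and 271 FPKM, against 810, 821 and 856 FPKM and 945, 880 and 914 FPKM (log2 difference from day 4 -1.46 ± 0.0566 SE, adjusted p 1.2e-09). Col15a1, a basement membrane zone collagen, dropped from 459, 463 and 464 FPKM to 267, 167 and 184 FPKM in controls and was at 44.7, 49.0 and 42.6 FPKM with EGCG. The 3 genes above were Tnc, Lox and Postn. Tenascin C (Tnc) was at 248, 238 and 249 FPKM against 88.6, 96.0 and 77.4 FPKM at control day 4 and 88.2, 59.1 and 64.3 FPKM at control day 8. The basement membrane chains Col4a1 and Col4a2 stayed on the path, with EGCG levels that were lower than at control day 4 and without a called difference from control day 8. As the 2 genes overlap in the annotation, their reads may be shared in part.

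Matrix proteases and their inhibitors were above the path for 7 of 14 genes and below for 1, beside the same 27.6% and 10.2%. Timp3, a matrix-bound protease inhibitor, was at 110, 108 and 105 FPKM with EGCG, against 9.14, 9.90 and 8.29 FPKM at control day 4 and 41.1, 22.4 and 22.7 FPKM at control day 8 (log2 difference from day 4 3.39 ± 0.205 SE, adjusted p 4.0e-08). Timp1 was at 646, 684 and 839 FPKM, against 301, 292 and 308 FPKM at control day 4 and 217, 199 and 221 FPKM at control day 8, so it moved against its control path. Timp2, Mmp10, Mmp11, Mmp13 and Mmp14 were the others above, and Mmp9 was the gene below, at no more than 0.119 FPKM with EGCG.

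Smooth muscle and myofibroblast contractile genes were above for 6 of 13 and below for 1, beside 27.6% and 10.2% of all tested genes, with a median log2 difference from control day 4 of 1.27. Acta2, smooth muscle actin, rose along the control path from 97.5, 80.4 and 83.0 FPKM to 233, 162 and 182 FPKM and reached 330, 314 and 409 FPKM with EGCG. Cald1, the actin regulator caldesmon, did not move in the same way in controls: it was at 273, 273 and 238 FPKM with EGCG, against 111, 113 and 87.7 FPKM at control day 4 and 110, 94.1 and 86.4 FPKM at control day 8. Cnn1 and Myh11, which mark differentiated smooth muscle, were not above the path, with 2.03, 1.93 and 2.24 FPKM for Cnn1 and 4.25, 4.18 and 3.64 FPKM for Myh11 with EGCG.

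Targets of YAP, the coactivator that answers to stretch and stiffness, were above for 6 of 9 with none below. Over all tested genes, 27.6% were above and 10.2% below. Median-ratio scaling and quantile normalization each gave 5 above and 1 below. Ctgf, a matrix-associated growth factor ligand, was at 292, 270 and 537 FPKM with EGCG, against 64.5, 53.8 and 74.3 FPKM at control day 4 and 88.2, 53.8 and 103 FPKM at control day 8. All treated libraries were above all controls (log2 difference from day 4 2.23 ± 0.185 SE, adjusted p 5.7e-07). Cyr61, its close relative, was not above: 377, 356 and 388 FPKM with EGCG were near 474, 442 and 431 FPKM at control day 4 (adjusted p 0.060) and higher than 201, 131 and 158 FPKM at control day 8.

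Surface genes of adipose progenitors were above the path for 7 of 15 and below for 1, beside 27.6% and 10.2% of all tested genes, with a median log2 difference from control day 4 of 0.97. Anxa3, an annexin, was at 117, 111 and 114 FPKM with EGCG, against 12.4, 11.9 and 9.24 FPKM at control day 4 and 34.6, 32.3 and 30.4 FPKM at control day 8 (log2 difference from day 4 3.13 ± 0.0728 SE, adjusted p 4.5e-11). Icam1, an adhesion molecule of committed preadipocytes, was at 28.2, 27.4 and 31.2 FPKM against 6.21, 7.38 and 8.07 FPKM at control day 4. Cd44, the hyaluronan receptor, was at 46.4, 46.0 and 46.0 FPKM against 14.2, 15.1 and 12.9 FPKM at control day 4 and 13.04, 8.78 and 9.54 FPKM at control day 8. Pdgfrb, Cd55, Eng and F3 were the others above. Dlk1, the preadipocyte factor Pref-1, was the gene below: 1.34, 1.35 and 1.52 FPKM with EGCG, against 52.2, 51.6 and 60.9 FPKM at control day 4 and 6.76, 9.60 and 9.97 FPKM at control day 8, 38.6-fold lower than at day 4 (adjusted p 2.9e-09). Pdgfra, a general marker of fat precursors, was at 116, 121 and 97.7 FPKM in EGCG day 8 libraries against 125, 130 and 118 FPKM in control day 4 libraries (adjusted p 0.28).

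Factors that restrain adipogenesis were above the path for 8 of 16 and below for 2, beside 27.6% and 10.2% of all tested genes. None was outside by 2-fold on the log2(FPKM + 1) scale, which understates changes of low genes, and both other scalings gave 5 above. As ratios of mean FPKM, Wnt10b was 29.9-fold over control day 4 and 3.72-fold over control day 8. Its distance above the path was under 2-fold on the log2(FPKM + 1) scale, so these are ratios of low levels. The 29.9-fold ratio is therefore uncertain. Gata2 was 2.055-fold and 2.658-fold over them, and Foxc2 2.241-fold and 2.002-fold. Runx2, the osteoblast factor, was at 7.16, 7.17 and 8.11 FPKM with EGCG against 4.31, 4.43 and 4.58 FPKM at control day 4. Klf2 was at 9.14, 9.44 and 10.96 FPKM against 1.36, 1.04 and 1.39 FPKM at control day 4. Its treated mean was 7.75-fold over control day 4 and 1.74-fold over control day 8. Twist1 and Tcf7l1 were below.

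Targets of NRF2, the factor that answers to electrophiles and oxidants, were above for 10 of 18 genes and below for 1, Taldo1. Either other scaling gave 3 below. The shares of all tested genes were 27.6% above and 10.2% below. Hmox1, heme oxygenase 1, was at 573, 564 and 589 FPKM with EGCG, against 203, 193 and 194 FPKM at control day 4 and 149, 128 and 138 FPKM at control day 8 (log2 difference from day 4 1.52 ± 0.0784 SE, adjusted p 1.1e-08). Ephx1, microsomal epoxide hydrolase (chromosome 1, 182906286 to 182951035), went from 14.5, 13.2 and 14.1 FPKM to 61.7, 68.8 and 67.7 FPKM in controls and to 215, 203 and 209 FPKM with EGCG, 15.1-fold over day 4 and 3.20-fold over day 8. For the textbook target Nqo1 the levels were low, 4.94, 5.14 and 5.19 FPKM against 2.32, 2.15 and 2.40 FPKM at control day 4. The list also holds pentose phosphate enzymes, which serve lipogenesis too. All 4, Tkt, G6pdx, Taldo1 and Pgd, rose in controls, and with EGCG their log2 differences from control day 4 were -0.21 (adjusted p 0.048), -0.26 (adjusted p 0.071), -0.29 (adjusted p 0.024) and 0.21 (adjusted p 0.038). The antioxidant response element core TGACNNNGC, searched on both strands, occurred in the promoters of 5 of 14 list genes in the table, against 14% of all genes and 12.4% of all promoters.

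Among 12 antioxidant enzymes and metallothioneins, 1 was above (Gpx1, with 3 above under quantile normalization) and 3 were below (Cat, Sod1 and Sod2). Over all tested genes, 27.6% were above and 10.2% below. Catalase was at 35.9, 34.7 and 34.03 FPKM with EGCG against 95.7, 87.6 and 96.2 FPKM at control day 4. Of 12 heat shock genes, 5 were above, beside 27.6% of all tested genes, and none below. Cryab, the small chaperone αB-crystallin, rose from 15.4, 17.4 and 18.2 FPKM to 71.7, 120 and 123.2 FPKM in controls and was at 182, 180 and 218 FPKM with EGCG. Of 13 genes of ATF4 and endoplasmic reticulum stress, 2 were above (Ddit3 and Atf3) and 1 below (Xbp1), beside the same 27.6% and 10.2%. Lower than at control day 4 were 7, beside 25.5% of all tested genes. Cholesterol synthesis genes were above for 3 of 17 and below for 3, or 5 under either other scaling, beside 27.6% above and 10.2% below over all tested genes, and 5 differed from control day 8 only. Of 9 genes of iron handling, Ftl1, the ferritin light chain, was above and Aco1 below, beside the same 27.6% and 10.2%.

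Glucocorticoid response genes were lower than at control day 4 for 10 of 12, beside 25.5% of all tested genes. Below the path were 6 of them, beside 10.2% of all tested genes. Control day 4 and both day 8 groups differ in the dexamethasone of the induction medium. The median log2 change of the list in controls from day 4 to day 8 was -0.12. Against control day 8, the median log2 difference with EGCG was -0.99. The part of the medium was not tested. Zbtb16, a glucocorticoid-induced zinc finger protein, was at 10.1, 9.73 and 5.88 FPKM with EGCG, against 25.4, 27.2 and 20.0 FPKM at control day 4 and 17.3, 31.1 and 22.3 FPKM at control day 8. Fkbp5 was at 39.2, 37.9 and 33.8 FPKM against 78.1, 77.2 and 80.7 FPKM at control day 4, and its treated mean was 2.025-fold under control day 8. Of 9 thermogenic genes tested, 4 were below the path and 1 above, beside 10.2% and 27.6% of all tested genes. Ucp1 had at most 0.178 FPKM in every library of the 3 groups.

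Chemokines were above for 3 of 13, a share near the 27.6% of all tested genes, and below for 4, beside 10.2% of all tested genes. Ccl8, a monocyte chemokine, was at 44.1, 52.8 and 64.7 FPKM with EGCG, against 5.19, 4.02 and 4.66 FPKM at control day 4 and 19.1, 11.02 and 16.4 FPKM at control day 8. Ccl7 and Csf1 were also above, and Ccl5, Cxcl10, Cxcl12 and Cx3cl1 below. Cxcl10, which is interferon-inducible, was at 0.457, 0.596 and 1.63 FPKM against 5.49, 5.18 and 6.52 FPKM at control day 4. In the interleukin-1 receptor family 1 of 7 genes was above and 2 were below, beside 27.6% and 10.2% of all tested genes. Il1rl1, the IL-33 receptor ST2, was at 28.1, 27.4 and 25.9 FPKM with EGCG, against 6.21, 6.60 and 5.64 FPKM at control day 4 and 0.963, 0.414 and 0.603 FPKM at control day 8. It fell in controls and was higher than both control groups with EGCG (log2 difference from day 4 1.96 ± 0.191 SE, adjusted p 2.4e-06). Of 4 MHC class II genes tested, 2 were above, beside 27.6% of all tested genes. Macrophage marker sums were lower with EGCG than in either control group and highest in control day 8 libraries, and their part in this result was not tested. H2-Ab1 was at 11.8, 10.96 and 12.9 FPKM with EGCG against 0.290, 0.212 and 0.403 FPKM at control day 4. Its treated mean was 45.5-fold over control day 4 and 2.07-fold over control day 8. H2-Ab1 thus rose in controls as well. It overlaps H2-Aa in the annotation.

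**Figure D4:**
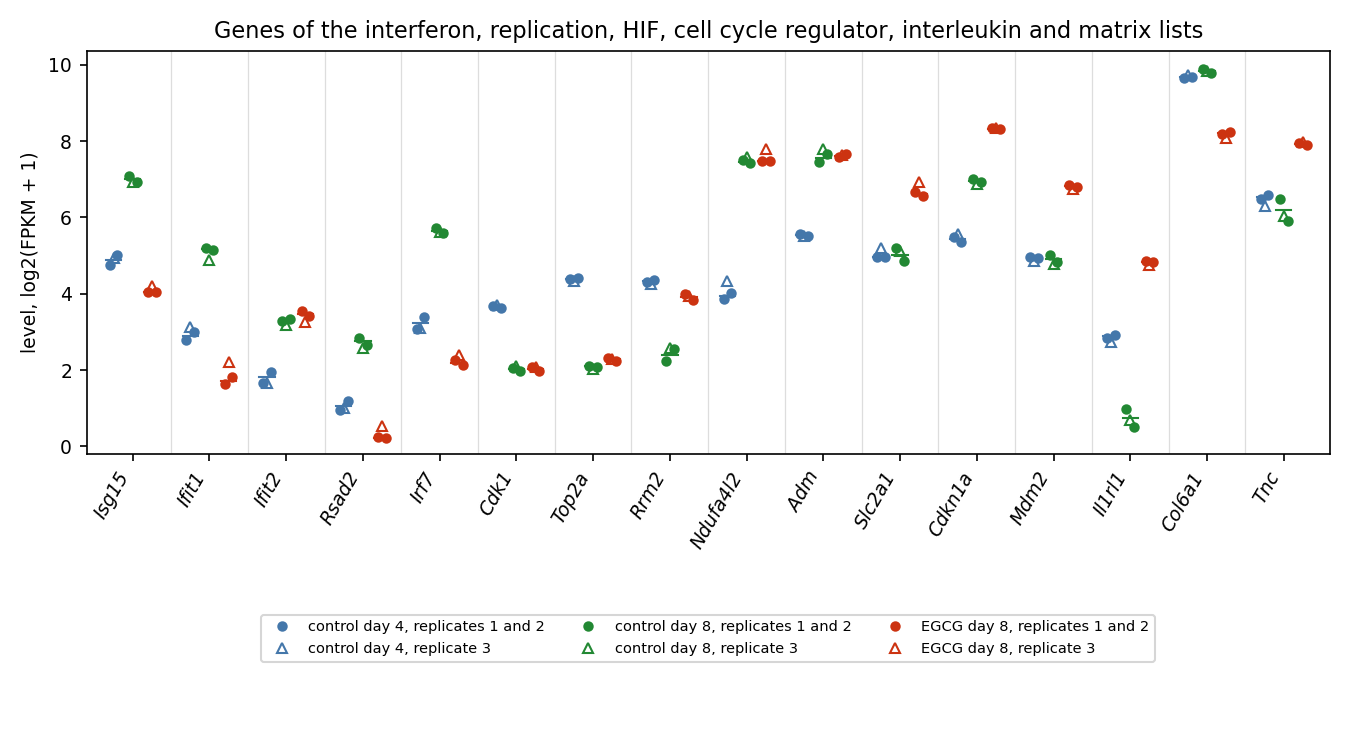
Levels in log2(FPKM + 1) of 16 list genes in every library of the 3 groups, with replicates 1 and 2 as filled circles, their mean as a bar and replicate 3 as open triangles. With EGCG, Isg15, Ifit1, Rsad2, Irf7 and Col6a1 are under both controls, Cdk1, Top2a, Ndufa4l2 and Adm sit beside control day 8, Rrm2 lies between the control groups, and Slc2a1, Cdkn1a, Mdm2, Il1rl1 and Tnc are above both.

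Among the genes farthest above the path, Ass1, argininosuccinate synthase of the urea cycle (chromosome 2, 31325727 to 31376192), was at 94.3, 95.8 and 140 FPKM with EGCG, against 8.09, 7.85 and 11.4 FPKM at control day 4 and 11.4, 8.20 and 12.1 FPKM at control day 8. The treated libraries were above all controls (log2 difference from day 4 3.42 ± 0.141 SE, adjusted p 2.0e-09). Gm5424, a pseudogene on chromosome 10, had 32.9, 24.7 and 0.298 FPKM with EGCG and no reads in the replicate 3 controls, so its values depend on how the tables were made and are uncertain. Hmga2, a chromatin protein of immature mesenchymal cells (chromosome 10, 119798331 to 119913525), was at 34.3, 32.6 and 32.7 FPKM with EGCG, against 3.52, 3.89 and 3.39 FPKM and 2.31, 2.54 and 2.55 FPKM (log2 difference from day 4 2.87 ± 0.0555 SE, adjusted p 1.6e-11). Its control level fell slightly, so the treated cells lay before the start of the path. Kif1a, a kinesin of axonal transport (chromosome 1, 94912033 to 94998442), was at 19.3, 18.1 and 16.4 FPKM against 0.732, 1.06 and 0.768 FPKM at control day 4.

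A further 3 genes of this rule, Anxa8, Serpinb9b and 1700007K13Rik, were at no more than 3.34 FPKM in every control library. With EGCG, Anxa8, an annexin, was at 17.95, 15.2 and 15.9 FPKM, Serpinb9b, a protease inhibitor, at 7.74, 7.50 and 8.74 FPKM, and 1700007K13Rik at 10.3, 7.97 and 9.63 FPKM. Prl2c2, a proliferin of the prolactin family (chromosome 13, 13088393 to 13097659), was at 15.2, 13.7 and 13.8 FPKM with EGCG, against 1.44, 2.496 and 2.08 FPKM at control day 4 and 0.142, 0.0293 and 0.355 FPKM at control day 8. Its family has near-identical copies whose reads cannot be told apart with certainty, and the other proliferin tested, Prl2c3, was above the path too.

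Among genes farthest below and not yet described were Cdo1 and Cyp2e1. Cdo1, the cysteine dioxygenase of fat and liver, was at 4.74, 5.13 and 5.07 FPKM with EGCG against 217, 184 and 246 FPKM at control day 4 and 307, 383 and 349 FPKM at control day 8. Cyp2e1, a cytochrome P450, had 4, 0 and 0 reads in the treated libraries, against 27.7, 19.2 and 42.3 FPKM at control day 4.

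The largest rises and falls against control day 4 alone brought further genes. S100a4, a calcium-binding protein of fibroblasts (chromosome 3, 90407692 to 90409967), was at 257, 232 and 303 FPKM with EGCG, against 10.4, 9.93 and 12.5 FPKM at control day 4 and 55.2, 64.2 and 66.0 FPKM at control day 8. It was 24.04-fold over day 4 and 4.09-fold over day 8 (log2 difference from day 4 4.46 ± 0.128 SE, adjusted p 1.5e-10). Angpt4, an angiopoietin, was at 32.9, 34.5 and 36.1 FPKM against 1.23, 1.47 and 1.72 FPKM at control day 4, with a wide control day 8 group of 16.4, 5.03 and 6.69 FPKM.

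Dio3, the deiodinase that inactivates thyroid hormone (chromosome 12, 111517278 to 111519307), was at 34.1, 37.6 and 35.98 FPKM with EGCG and at 23.8, 19.9 and 21.6 FPKM at control day 8, against 1.56, 1.67 and 2.43 FPKM at control day 4, so most of its rise was shared with the controls. Itgbl1, an integrin-like secreted protein, had no called difference from control day 8 (adjusted p 0.066): 42.8, 46.2 and 36.6 FPKM with EGCG against 46.4, 65.2 and 64.3 FPKM, with 2.69, 2.197 and 2.03 FPKM at control day 4. It did not lie outside the path.

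Of the falls, Cxcl13, a B cell chemokine (chromosome 5, 96385945 to 96390086), was at 0.393, 0.470 and 0.315 FPKM with EGCG against 134, 123.1 and 176 FPKM at control day 4 and 13.8, 52.9 and 50.3 FPKM at control day 8 (log2 difference from day 4 -6.50 ± 0.416 SE, adjusted p 6.5e-08). Agtr2, the type 2 receptor of angiotensin II, was at 4.28, 5.31 and 3.64 FPKM against 205, 212 and 220 FPKM at day 4 and 27.8, 12.7 and 14.6 FPKM at day 8. Penk, proenkephalin, which overlaps A830012C17Rik, was at 1.43, 1.35 and 1.49 FPKM against 83.8, 84.9 and 121 FPKM and 4.11, 5.795 and 8.37 FPKM. These 3 genes fell along the control path, and the treated libraries were lower than all control day 8 libraries.

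**Figure D5:**
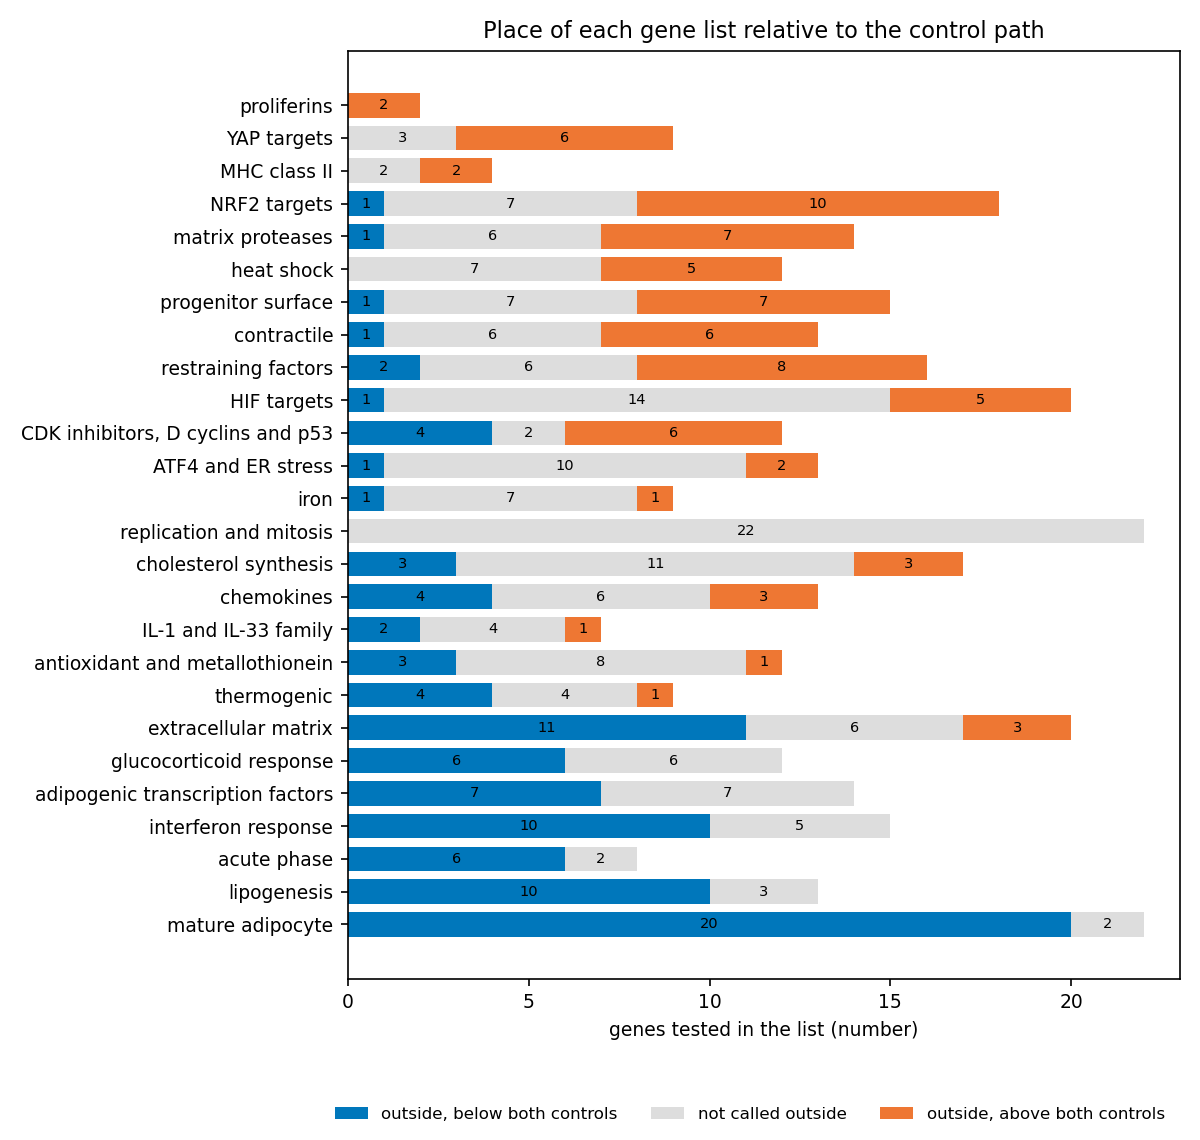
Bars give the number of tested genes in each of 26 lists, split into genes called below both control groups (blue), genes not called outside (grey) and genes called above both (orange). The mature adipocyte list has 20 of 22 below, the replication and mitosis list none of 22 outside, and the NRF2 target list 10 of 18 above. Over all tested genes, 10.2% were called below and 27.6% above.

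No list changed the sign of its median difference from control day 4 under median-ratio scaling or quantile normalization. In the contractile, YAP target, progenitor surface, thermogenic, heat shock, interleukin-1, iron and ATF4 lists, a count above or below the path of at most 2 moved by 1 gene under these scalings. Among genes given here with values, Cebpb, Ebf1, Ebf2, Fkbp5, Icam1, Cd44, Runx2, Col1a1, Col15a1, Tnc, Timp1, Timp3, Cald1, Ctgf, Ccnd1, G6pdx, Tkt, Slc2a1, Cxcl10, Irf7, Itgbl1 and Hmga2 also overlap another gene in the annotation, and their levels are uncertain to that extent because the strand setting of the counting was not given.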

How the data were processed

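The authors deposited FPKM values for 37310 genes in 2 tables, replicates 1 and 2 (16 libraries) and replicate 3 (8 libraries), with gene length, another deposited value, in bases. The submitters' processing notes name FastQC 0.11.9, HISAT2 2.2.0, HTSeq 0.11 and build mm9; the strand setting is not given in the sources used here. Lengths equalled the longest transcript in GENCODE vM1 (NCBIM37), from which coordinates, counted from 1, were taken. FPKM times length gave whole reads (tolerance 0.01) for 100% of values in every library. They were used for depth and floors only: 3 reads of a 2 kb gene are 0.0288 to 0.0915 FPKM in the 9 libraries compared, and floors cover counting error alone.

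In WAT day 8 EGCG replicate 3, Prl3d1, 1700007K09Rik, 4930555F03Rik, 6030405A18Rik and Gm4675 were removed and the rest rescaled. Genes with FPKM of at least 1 in 2 of the 16 libraries of the first table were fitted as log2(FPKM + 1), which understates changes of low genes, with 1 mean per group for all 8 groups (limma 3.58.1, R 4.3.3, eBayes with trend, 8 residual degrees of freedom, two-sided). Genes outside the path were found by an intersection-union test: p was the larger of the 2 p-values when both differences had 1 sign, and otherwise 1. The procedure was tested on simulated data. Alternatives were a pseudocount of 0.1, other filters, median-ratio and quantile scaling, fewer groups, a replicate block, both tables in 1 fit and leaving out each of the 6 libraries of the 3 groups in the first table.

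Named genes are (a) the 6 highest and 6 lowest against control day 4 and (b) the 8 farthest above and 8 below the path, among called genes with a mean of at least 5 FPKM in the highest group and the same direction in replicate 3, and (c) list members. Of 442 list entries 439 were matched, 2 by a second symbol; Hmgcs1, Prl2c4 and Syna are not analysed here. Some genes that meet these rules are not reported here. Sums over skeletal muscle, pericyte, mesothelial, epithelial, placenta and testis genes were also computed; in the order control day 4, control day 8, EGCG day 8 they spanned 49.6 to 53.7, 30.1 to 37.4 and 35.2 to 40.3 FPKM (skeletal muscle), 33.3 to 35.3, 38.5 to 42.9 and 43.4 to 47.2 FPKM (pericyte), 7.51 to 9.81, 5.46 to 7.70 and 12.5 to 16.7 FPKM (mesothelial), 37.0 to 79.7, 19.5 to 41.2 and 22.8 to 48.8 FPKM (epithelial), 1.61 to 2.63, 0.177 to 0.617 and 14.0 to 15.4 FPKM (placenta, mostly Prl2c2) and 0.622 to 1.08, 0.598 to 1.04 and 0.407 to 1.43 FPKM (testis). The placenta list holds Prl3d1, which was removed from WAT day 8 EGCG replicate 3, so the placenta sum of that library leaves it out. Before removal it stood there at 230490 FPKM. The members and lists were chosen with earlier results of these data known.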

Additional observations from a re-analysis of the deposited data

Results flagged for a closer look

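A signal outside the measurements compared stood in WAT day 8 EGCG replicate 3. Of its reads on genes, 19.59% were on Prl3d1, 17.72% on 1700007K09Rik, and 7.901% on each of 4930555F03Rik, 6030405A18Rik and Gm4675, which together held 25426249 reads. In the other 23 libraries these genes had at most 1, 5, 5, 2 and 1 reads in that order. Prl3d1 is a member of the placenta marker list, whose sum in this library was computed without it. The origin of these reads was not tested.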

How the results depend on the processing

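With a pseudocount of 0.1 in place of 1, genes at least 2-fold outside the path numbered 605 above and 533 below, against 352 and 318. Median-ratio scaling gave 2451 above and 2247 below the path, and 48.71% of genes called against control day 4 were higher in place of 61.57%; of the 5335 genes outside the path, 3892 remained outside on the same side, and 4263 under quantile normalization. Fitting both tables as deposited gave 6058 genes called against control day 4 (1814 higher), 4107 between the control days, 3750 against control day 8, and 1992 outside (479 above), with 141 above and 528 below by at least 2-fold. That fit holds WAT day 8 EGCG replicate 3 with its 5 high genes: with them removed, 6020 genes were outside, and without that library 5671. Leaving out in turn each of the 6 libraries of the 3 groups in the first table gave 4376 to 5256 genes outside, 4311 to 4940 of them shared. The labels do not tie equal replicate numbers to a shared isolation or day. Deviations of same-numbered libraries correlated at -0.079 to 0.081 over 28 pairs of groups. These values show no common shift by replicate number, and whether an isolation or day was shared was not tested. A fit with a replicate block called 9283 genes against control day 4 (9349 without), 8520 between the control days, 8928 against control day 8 and 5267 outside the path (3840 above, 1427 below), 5214 of them shared with the fit without it. The 25 genes named by rule kept their calls and direction in all 400 values recomputed. Depth limits Lep, Plin1 and Cyp2e1 with EGCG, where libraries held 0 to 54 reads. It also limits the ratio of Wnt10b to control day 4, where its level was low. Genes below 1 FPKM were largely left untested. The results rest on 2 libraries per group with 1 more for direction.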
